A study of Mus musculus with 16 samples.

Results

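The genes described are 9 that handle glutamate and glutamine in astrocytes, taken by name from the 50600 genes of the deposited tables: Slc1a2, Slc1a3, Slc1a4, Slc1a5, Glul, Glud1, Slc38a1, Slc38a2 and Slc38a3. All 9 passed the expression filter of each main test. They were measured by allele-specific RNA-seq in clonal cells of 129Sv x Cast/EiJ F1 mice, in which reads over a polymorphic base can be given to the maternal 129/Sv or the paternal Cast allele. NPC clones are self-renewing neural progenitor cells grown from single cells of F1 ES cell cultures with EGF and FGF2, and astrocytes were derived from such clones by withdrawing EGF and adding BMP4. There were 16 libraries of 12 clones. Astrocytes came from the female clones 129, C2 and G4 and the male clones mC3 and mE6, with 1 poly(A) library per clone. NPCs were sequenced after poly(A) enrichment from the female clone F5 and the male clones mG2 and mG6, with 1 library per clone, and after ribosomal RNA depletion from the male clones Ch3, Ch5, Ch7 and Ch8, with 2 libraries per clone. No treatment other than the differentiation was given. No clone was measured as both NPC and astrocyte here, so the cell types were compared between different clones, and nothing in the labels says that the 2 libraries of a Ch clone came from separate cultures. Strain and parent of origin cannot be told apart in this cross.

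By RefSeq (GRCm38.p6), Slc1a2 lies on chromosome 2 (102658239 to 102790784), Slc1a3 on 15 (8634124 to 8710807), Slc1a4 on 11 (20302180 to 20332713), Slc1a5 on 7 (16781334 to 16798274), Glul on 1 (153899929 to 153909723) and Glud1 on 14 (34310727 to 34345033). Slc38a1 and Slc38a2 are neighbours on chromosome 15 (96571418 to 96643438 and 96687392 to 96699728), and Slc38a3 lies on 9 (107651154 to 107668968).

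Glutamate released by neurons is cleared by astrocytes, through the sodium-coupled transporters GLT-1 (Slc1a2) and GLAST (Slc1a3). Inside the astrocyte, glutamine synthetase (Glul) joins it with ammonia to make glutamine, or glutamate dehydrogenase (Glud1) turns it into alpha-ketoglutarate for the mitochondria. Glutamine leaves the astrocyte through SN1 (Slc38a3) and is taken up by other cells through the system A carriers SNAT1 (Slc38a1) and SNAT2 (Slc38a2), while ASCT1 (Slc1a4) and ASCT2 (Slc1a5) exchange neutral amino acids, ASCT2 with glutamine among them.

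The libraries held 78257443 to 93963293 reads on genes in astrocytes, 69925081 to 105892734 in poly(A) NPC and 20871111 to 30920672 in rRNA-depleted NPC. Levels are given as CPM, counts scaled to the size of the library with TMM factors that were computed separately for the 8 poly(A) and the 8 rRNA-depleted libraries, so levels were compared within a preparation, apart from 1 correlation for Slc38a1 that is also given without centring. In the astrocytes all 4 cell cycle genes of the marker list fell against poly(A) NPC (summed level 8.99 to 25.1 CPM against 1093 to 1251), Nes and Olig2 fell, and the astrocyte genes Gfap and Aqp4 rose, while Aldh1l1, another astrocyte marker, fell by 1.55 on the log2 scale. Among markers of other cells, Col1a1, a collagen of fibroblasts, rose from 0.601 ± 0.151 CPM (SD, n = 3) to 57.7 ± 86.9 (SD, n = 5), with 211 CPM in clone C2, and the summed level of the 3 fibroblast and pericyte markers was 2.71 to 215 CPM against 0.827 to 2.02. None of the 3 was at 0 in the astrocytes as a group, and their part in the results below was not tested. Of the other markers, 1 of 6 neuronal genes (Snap25) and 1 of 3 endothelial genes (Pecam1) rose. The summed levels in astrocytes and poly(A) NPC were 10.9 to 42.0 and 22.9 to 34.0 CPM for neurons, 0.247 to 1.72 and 0.149 to 0.431 for endothelium, 11.8 to 23.0 and 5.54 to 8.37 for the oligodendrocyte lineage, and 1.85 to 11.5 and 1.31 to 10.9 for microglia, and their part was not tested either.

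The promoters (250 bases before to 50 after the start) of Glud1 and Slc38a2, which differed in level between the cell types as given below, are shown beside that of Slc1a3, which was abundant in both, because they differ in CpG content. A promoter entry was found for 6 of the 9 members, not for Slc1a5, Slc38a1 and Slc38a3, and 5 of the 6 spanned the annotated start of the gene. That of Slc1a2 lay 47949 bp inside the gene and is not shown. The sequences are RefSeq GRCm38.p6, 5′ to 3′ on the strand of the gene, and capitals mark the CpG dinucleotides (letters CG). The entry of Slc1a3 lies at chr15:8710758-8711057 on the minus strand, that of Glud1 at chr14:34310477-34310776 on the plus strand and that of Slc38a2 at chr15:96699679-96699978 on the minus strand.
Slc1a3: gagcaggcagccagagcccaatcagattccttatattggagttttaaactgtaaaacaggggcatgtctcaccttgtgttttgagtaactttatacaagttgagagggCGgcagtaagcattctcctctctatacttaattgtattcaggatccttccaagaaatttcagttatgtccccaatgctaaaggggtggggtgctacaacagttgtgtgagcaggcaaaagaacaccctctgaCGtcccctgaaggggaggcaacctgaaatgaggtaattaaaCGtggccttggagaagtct
Glud1: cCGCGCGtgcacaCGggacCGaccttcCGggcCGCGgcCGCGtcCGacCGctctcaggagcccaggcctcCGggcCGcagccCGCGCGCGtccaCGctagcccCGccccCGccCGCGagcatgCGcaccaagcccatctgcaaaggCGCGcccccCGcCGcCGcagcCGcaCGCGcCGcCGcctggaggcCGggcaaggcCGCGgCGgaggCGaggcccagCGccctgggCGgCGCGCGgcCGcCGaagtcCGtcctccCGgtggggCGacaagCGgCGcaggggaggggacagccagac
Slc38a2: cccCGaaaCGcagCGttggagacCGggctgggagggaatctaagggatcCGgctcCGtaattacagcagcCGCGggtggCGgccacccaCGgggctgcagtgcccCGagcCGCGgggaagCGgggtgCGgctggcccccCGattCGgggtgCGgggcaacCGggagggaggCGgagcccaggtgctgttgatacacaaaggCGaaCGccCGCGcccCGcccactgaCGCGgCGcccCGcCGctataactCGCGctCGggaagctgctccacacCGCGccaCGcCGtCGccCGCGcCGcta
There were 3 CpG in the Slc1a3 promoter, 51 in that of Glud1 and 41 in that of Slc38a2, against a median of 7 over 32817 promoters. At least 3 CpG were present in 76.7% of all promoters, at least 41 in 3.46% and at least 51 in 0.716%. Glud1 and Slc38a2, with the most CpG of the 6, differed in direction, Glud1 being higher and Slc38a2 lower in astrocytes. The promoters of Slc1a4 and Glul, not shown, held 21 and 17 CpG, also above the median. Neither of these genes passed the test of level between the cell types. The STAT motif TTCNNNGAA (8.29% of promoters on either strand) was matched once in the promoter of Slc1a3 and in no other of the 6, and the CHOP-ATF motif TGATGNAA (3.97%) once in that of Slc1a4. The E-box CACGTG (7.15%) and the palindromic NFI motif (0.0366%) were in none of the 6. These are matches of letters, not sites.

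In the comparison of the 5 astrocyte clones with the 3 poly(A) NPC clones, Slc1a2, Slc38a3 and Glud1 were higher in astrocytes and Slc1a5 and Slc38a2 lower. Thus 5 of the 9 members passed the test, against 25.5% of the 18192 genes tested (13.0% higher and 12.6% lower). The median log2 fold change of the members was 0.73 and that of all genes 0.08. The groups of clones did not overlap for 4 members, Slc1a2, Glud1, Slc1a5 and Slc38a2, against 32.7% of all genes. In bulk RNA, more cells of a type and more RNA per cell cannot be told apart.

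**Figure D1:**
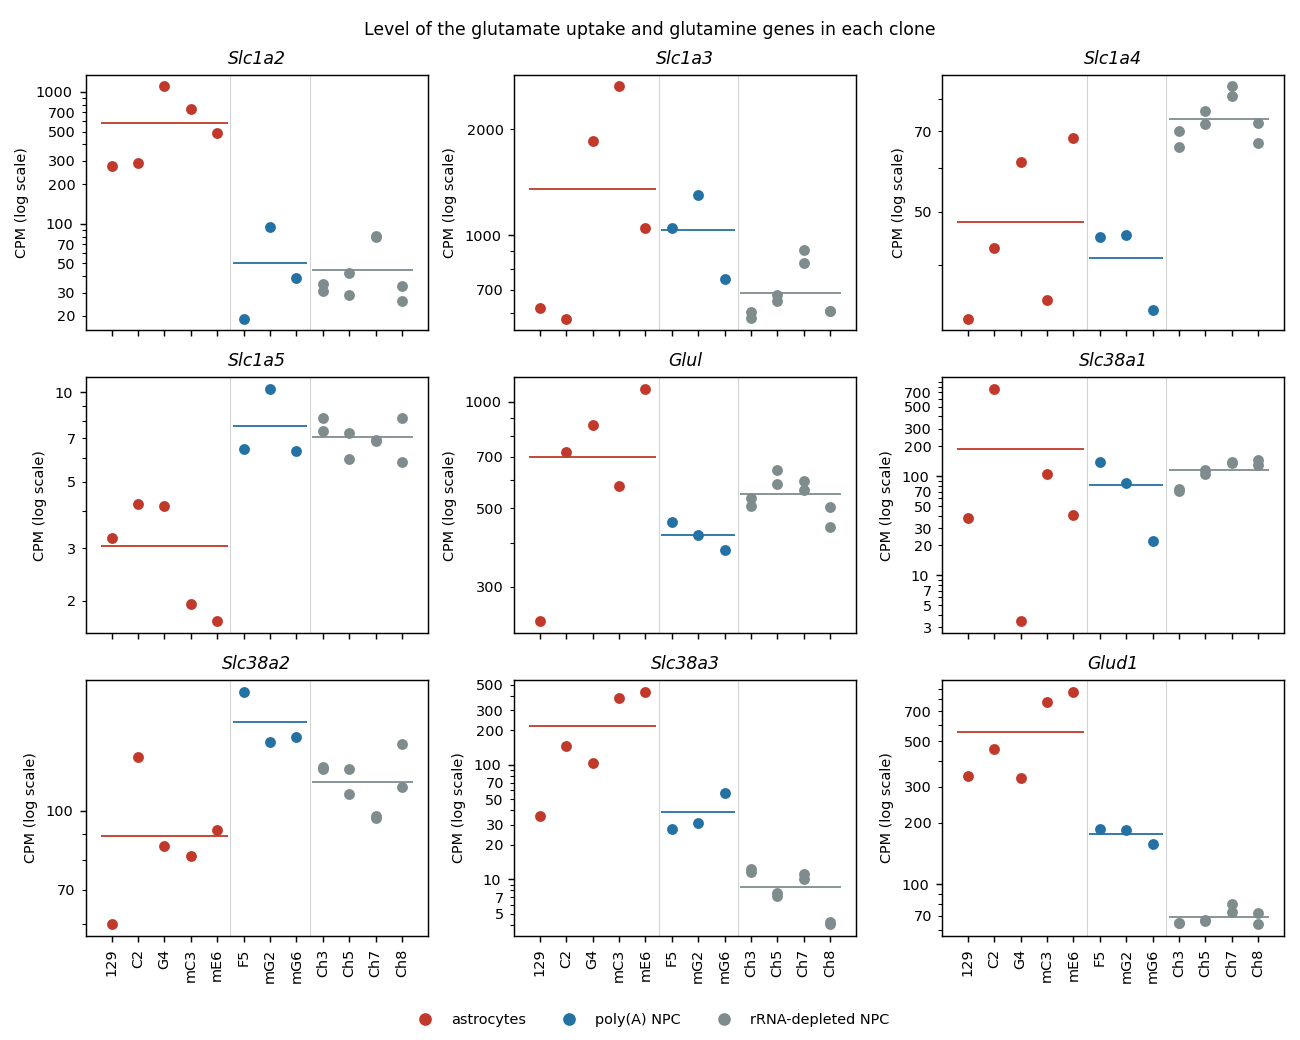
Level of each gene (CPM, log scale, a separate scale per gene) in every library, by clone, in astrocytes (red), poly(A) NPC (blue) and rRNA-depleted NPC (grey, 2 libraries per clone, scaled separately), with lines at the mean of the clones. Slc1a2 and Glud1 lie higher in all 5 astrocyte clones than in the 3 poly(A) NPC clones, and Slc38a1 runs from 3.44 to 758 CPM among the astrocytes.

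The glutamate transporter gene Slc1a2 had 274, 291, 1107, 744 and 490 CPM in the astrocyte clones 129, C2, G4, mC3 and mE6, and 19.1, 94.3 and 38.7 CPM in the NPC clones F5, mG2 and mG6. Each astrocyte clone lay above each NPC clone. The log2 fold change was 3.52 ± 0.718 (SE), or 11.5-fold (edgeR, adjusted p = 0.0101). It was the only member called with each of the 8 clones left out in turn, with log2 fold changes from 3.12 to 4.32.

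Slc1a3, which encodes the other astrocyte glutamate transporter, was already abundant in NPCs and had 620, 579, 1847, 2648 and 1050 CPM in the same order of astrocyte clones. The NPC clones had 1047, 1302 and 752 CPM. Clones 129 and C2 lay under all 3 NPC clones and G4 and mC3 above them, and no difference was detectable (log2 fold change 0.38 ± 0.531, adjusted p = 0.637). Clones G4 and mC3 also had the highest levels of Slc1a2. Over the 12 clones, with each set centred on its mean, the log2 levels of Slc1a2 and Slc1a3 had a Pearson r of 0.729. Of the 36 pairs of members, r was higher for Slc1a4 with Glul (0.820) and Slc38a3 with Glud1 (0.788) and lowest for Slc1a5 with Glud1 (−0.751). These are descriptions over clones whose libraries were scaled together within a preparation.

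Glul had 240, 720, 858, 580 and 1088 CPM in astrocytes and 457, 420 and 382 CPM in poly(A) NPC. Only clone 129 lay under the NPC range, and the log2 fold change of 0.73 ± 0.422 did not pass the test (adjusted p = 0.234). Without clone 129 the value was 0.95 and passed it (adjusted p = 0.0286). In this clone the genes of chromosome 1, where Glul lies, also had a shifted allelic balance, as given below.

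Glud1 rose from 186, 185 and 158 CPM in the NPC clones to 340, 456, 329, 780 and 873 CPM in astrocytes. The lowest astrocyte value, in G4, was above the highest NPC value. The log2 fold change was 1.66 ± 0.385 (adjusted p = 0.0165), lost when F5, mG2 or mG6 was left out, and 1.40 to 1.79 over all 8 clones left out in turn.

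The glutamine exporter gene Slc38a3 had 36.1, 145, 104, 380 and 435 CPM in astrocytes, highest in the male clones mC3 and mE6, and 27.3, 31.2 and 57.0 CPM in poly(A) NPC. Clone 129 lay within the NPC range and the other 4 astrocyte clones above it. The log2 fold change was 2.52 ± 0.798 (adjusted p = 0.0490). Leaving out clone 129 kept the call (adjusted p = 0.0131), and leaving out any of the other 7 clones ended it.

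Both system A carriers differed in how they varied. Slc38a2 was lower in astrocytes, with 59.99, 127, 85.4, 81.7 and 91.6 CPM against 171, 137 and 139 CPM in NPC. All 5 astrocyte clones lay under the 3 NPC clones, C2 closest to them (log2 fold change −0.74 ± 0.232, adjusted p = 0.0469). This call was lost with sex as a covariate (log2 fold change −0.78, adjusted p = 0.0548), without the expression filter (−0.78, adjusted p = 0.0627) and when any clone other than C2 was left out, while the log2 fold change stayed at −0.94 to −0.62 with each clone left out. Its neighbour Slc38a1 spanned 3.44 CPM in G4 to 758 CPM in C2 within the astrocytes, so that its log2 fold change of 1.21 ± 1.42 did not pass the test (adjusted p = 0.572) and became −0.85 without C2. Clone C2 was also the one with the highest Col1a1.

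Of the neutral amino acid exchangers, Slc1a5 was low throughout and fell further in astrocytes. It had 3.24, 4.23, 4.16, 1.95 and 1.71 CPM in the astrocyte clones against 6.44, 10.2 and 6.35 CPM in NPC, with no overlap. The log2 fold change was −1.33 ± 0.391 (adjusted p = 0.0387), a call that was lost with any clone other than C2 and G4 left out. Slc1a4 had 32.0, 43.0, 61.6, 34.6 and 68.0 CPM in astrocytes and 44.9, 45.3 and 33.1 CPM in NPC, and these ranges overlapped (log2 fold change 0.22 ± 0.288, adjusted p = 0.618).

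**Figure D2:**
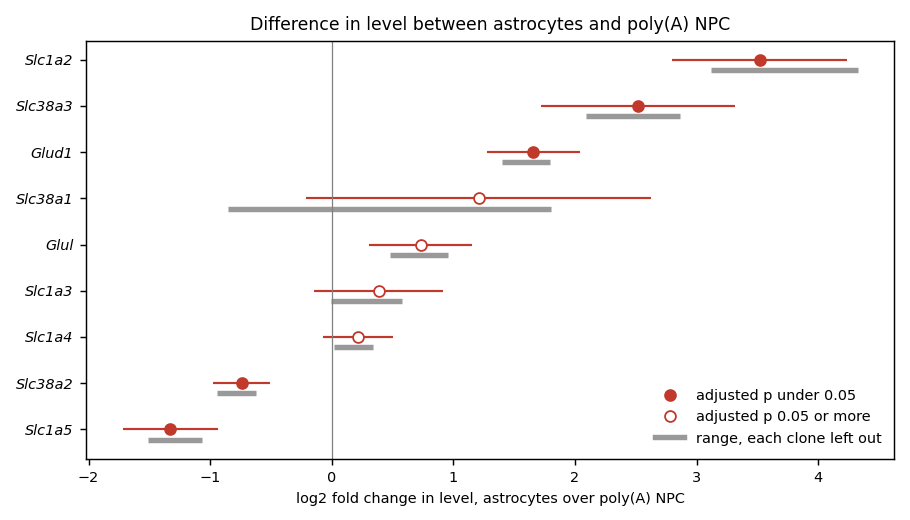
Log2 fold change in level of the 9 genes, astrocytes (5 clones) over poly(A) NPC (3 clones), as points with standard errors, filled where the adjusted p was under 0.05, with grey bars for the range when each clone is left out in turn. Slc1a2 stands highest at 3.52 and Slc1a5 lowest at −1.33, and the grey bar of Slc38a1 runs from −0.85 to 1.80.

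Levels of different genes were compared per length of exon. Glul had the highest level in astrocytes, at 209 ± 95.2 CPM per kb (SD, n = 5), followed by Slc1a3 at 158 ± 104, Glud1 at 136 ± 62.2, Slc38a3 at 65.04 ± 52.2 and Slc1a2 at 44.2 ± 26.6. The ranges of mean ± SD overlapped between neighbours in this order. Slc38a1 (22.5 ± 38.2), Slc38a2 (19.3 ± 5.28) and Slc1a4 (12.2 ± 4.13) were lower, and Slc1a5 was far below all others at 0.736 ± 0.287. In poly(A) NPC the order began with Glul (126 ± 11.3 CPM per kb, n = 3) and Slc1a3 (121 ± 32.2), and Slc1a2, at 3.86 ± 2.97, was second lowest, above Slc1a5 at 1.85 ± 0.535. Slc1a2 so moved from near the bottom of the list to its middle.

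The other genes of the pathway were given by lists chosen by name. Of all 18192 genes tested, 13.0% rose and 12.6% fell. Of 6 other glutamate transporters of the SLC1 and SLC17 families, 4 were expressed enough to test, and 2 of them passed the test, both falling: Slc17a8, a vesicular glutamate transporter (log2 fold change −4.04 ± 0.794, adjusted p = 0.00867), and Slc1a6, a neuronal plasma membrane transporter (−2.95 ± 0.742, adjusted p = 0.0220), both under 5 CPM on average in either cell type. Of the 8 other SLC38 genes, 4 were tested and 0 passed in edgeR (0 at an unadjusted p under 0.05, and 0 in DESeq2). Of 23 genes of glutamate and glutamine metabolism, 22 were tested, 4 rose and 2 fell, a share called that was near that of all genes. Gclc and Gclm, the subunits of the enzyme that joins glutamate to cysteine for glutathione, rose by 2.16 ± 0.301 and 1.72 ± 0.325 (log2 fold change), and Pc, the pyruvate carboxylase that refills the citric acid cycle, by 1.79 ± 0.456. Aldh18a1, which makes proline precursors from glutamate, fell by 2.34 on the log2 scale. Among 12 partners of glutamate uptake 4 rose and 1 fell: Atp1b2, a sodium pump subunit, rose by 2.90 ± 0.291, Slc7a5, a light chain of amino acid exchangers, by 2.39 ± 0.402, and the glycine transporter gene Slc6a9 by 1.51 ± 0.373, while Grm3, a metabotropic glutamate receptor, fell by 2.77. The median log2 fold changes of these 4 lists, in the order given, were −1.68, 0.37, −0.06 and −0.42, beside 0.08 for all genes.

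Among the rRNA-depleted NPC clones, which have 2 libraries each, the spread between clones could be set against that between libraries of a clone. Of the 9 members 4 differed in level between the Ch clones (Slc1a2, Slc1a3, Slc38a1 and Slc38a3), against 16.6% of 17095 genes. Slc1a2 had 79.5 and 81.1 CPM in the libraries of Ch7 and 26.0 to 42.4 CPM in the 6 others (edgeR, F test, adjusted p = 0.000449). Slc1a3 was also highest in Ch7, at 832 and 907 CPM against 579 to 675 CPM (adjusted p = 0.00411). It is the same clone that led for both glutamate transporters. This call for Slc1a3 was lost without the second library of Ch7 (adjusted p = 0.0748). Slc38a3 was lowest in Ch8, at 4.27 and 4.07 CPM, and highest in Ch3, at 11.5 and 12.3 CPM (adjusted p = 0.000200), and Slc38a1 was lowest in Ch3, at 74.6 and 71.0 CPM against 106 to 147 CPM elsewhere (adjusted p = 0.000209). In these clones Slc1a4 had a mean of 73.5 ± 6.75 CPM, Slc1a5 7.08 ± 0.4998, Glul 548 ± 62.4, Slc38a2 114 ± 11.8 and Glud1 68.9 ± 5.33 (SD, n = 4), with 0 of these 5 past the threshold in edgeR (adjusted p from 0.0735 to 0.766). Slc1a4, Glul and Slc38a2 had an unadjusted p under 0.05. Glul passed with the library number as a replicate block (edgeR, adjusted p = 0.0197), in DESeq2 (0.0123) and without the expression filter (0.00645), where Slc38a2 passed too (0.0396). Both also passed without the second library of Ch8 (edgeR, adjusted p = 0.0398 for Glul and 0.0209 for Slc38a2).

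The share of allele-specific reads from the Cast allele (percent Cast) was computed for all 9 members in all 12 clones, with 57 to 100291 allele-specific reads per value. By the limits of the study, under 15% or over 85% for monoallelic and 35 to 65% for biallelic expression, 80 of the 108 values were biallelic, 19 biased and 9 monoallelic. Slc1a3, Slc1a4, Slc38a2 and Glud1 were biallelic in all 12 clones. The 9 monoallelic values belonged to Slc38a1 (5) and Slc1a5 (4). Those of Slc1a5 were 85.2 to 88.3%, in the NPC clones F5, mG6, Ch3 and Ch7, and their Wilson intervals (counting error alone) all reached under 85%. The NPC clones mG2, Ch5 and Ch8, called biased at 81.2 to 84.4%, had intervals reaching over 85%. For Slc1a5 the limit so does not separate the NPC clones beyond counting error.

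**Figure D3:**
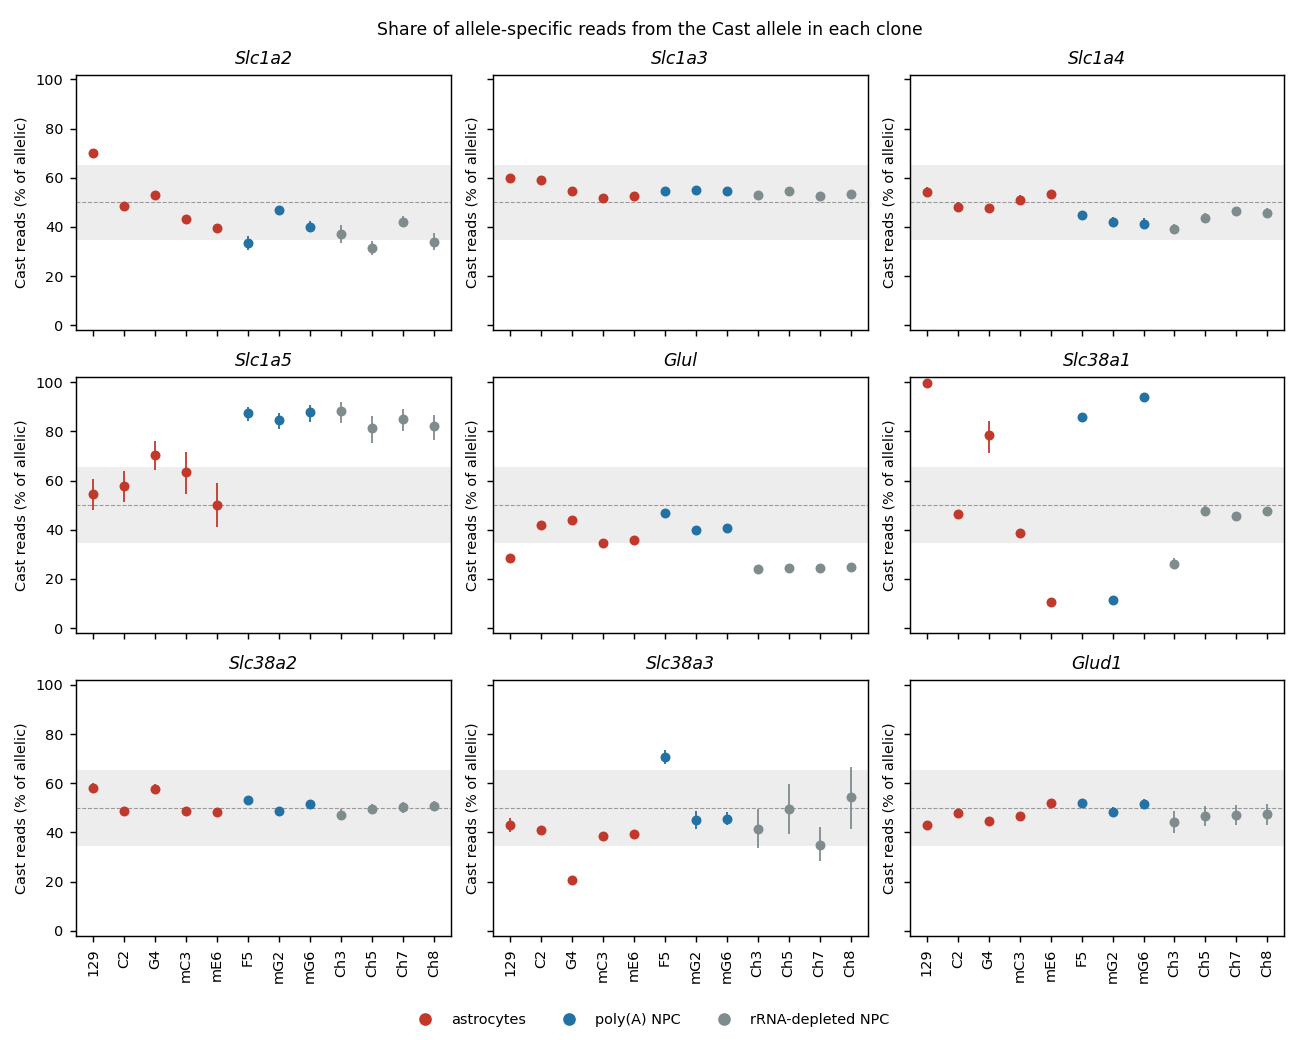
Percent Cast of each gene in the 12 clones, with 95% Wilson intervals (counting error alone), the biallelic range of 35 to 65% shaded and equal expression dashed. Slc38a1 ranges from 10.7 to 99.9% between clones, Slc1a5 lies at 50 to 70.5% in astrocytes and at 81.2 to 88.3% in NPC, and Slc1a3 stays between 51.7 and 59.7%.

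Across clones, the SD of percent Cast was 30.4 points for Slc38a1, and 22 of 9577 autosomal genes (0.230%) had a higher one. Slc1a5 (14.4 points), Slc38a3 (11.9), Slc1a2 (10.7) and Glul (8.52) followed, with 11.6%, 16.1%, 18.7% and 25.0% of genes above them, and Slc1a3 was the most even member at 2.50 points (77.4% of genes above it). The members, Slc38a1 among them, were chosen with earlier results of these data known, so these ranks are a description. The median percent Cast of the genes within 10 Mb of each member lay between 46.8 and 52.1% in all but 5 of the 108 pairs of member and clone. These 5 pairs were Glul in clone 129 and in all 4 Ch clones, where all of chromosome 1 had a median of 34.2% and of 32.2 to 32.7%.

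The direction of the allelic difference was tested over clones in each cell type. In astrocytes 1 of the 9 members, Glul, passed the test of Cast against 129 reads, against 28.1% of 11415 genes. In the 7 NPC clones 5 of the 9 passed, Slc1a3 and Slc1a5 with more Cast and Slc1a2, Slc1a4 and Glul with less, against 41.6% of 10723 genes. In poly(A) NPC alone the 3 members Slc1a3, Slc1a4 and Slc1a5 passed, and in the Ch clones alone 6, with Glud1 beside the 5 above. These tests were against equal expression. For Glul they did not allow for the low Cast share of the whole of chromosome 1 in the Ch clones and clone 129. Between poly(A) and rRNA-depleted NPC, percent Cast did not overlap for 3 of the 9 members (Slc1a3, Glul and Glud1), against 23.8% of genes. Clone and preparation cannot be told apart there. For Glul, the median of the whole of chromosome 1 differed too, at 47.7 to 51.0% in poly(A) NPC and 32.2 to 32.7% in the Ch clones. Set against that median, Glul was lower by 4.29 to 7.94 points in poly(A) NPC and by 7.49 to 8.82 in the Ch clones, and these ranges overlapped. Between astrocytes and poly(A) NPC percent Cast did not overlap for 3 members (Slc1a4, Slc1a5 and Slc38a3), against 14.7% of genes, and 1 of the 9 passed the test of a change in the ratio, against 0.384% of 13286 genes.

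That member was Slc1a5. Its percent Cast was 54.4, 57.7, 70.5, 63.3 and 50% in the astrocyte clones 129, C2, G4, mC3 and mE6, on 116 to 241 allele-specific reads each. In NPC it was 87.5, 84.4 and 87.7% in F5, mG2 and mG6 and 88.3, 81.2, 85.2 and 82.2% in Ch3, Ch5, Ch7 and Ch8. Every NPC clone lay above every astrocyte clone, in both preparations. The log2 ratio of Cast to 129 reads was 2.55 ± 0.122 over the 7 NPC clones (adjusted p = 3.01e-05) and 0.55 ± 0.205 in astrocytes (adjusted p = 0.111), and the difference between astrocytes and poly(A) NPC was −2.14 ± 0.299 (edgeR, adjusted p = 0.0461). The last call was lost with any clone but G4 left out (adjusted p up to 0.185, log2 difference −2.32 to −2.005), and held with all 7 NPC clones in place of 3 (−1.998, adjusted p = 0.00151). Per allele, Cast reads fell from 4.65 ± 1.12 CPM in poly(A) NPC (SD, n = 3) to 1.36 ± 0.587 CPM in astrocytes (n = 5), while 129 reads were at 0.743 ± 0.305 and 0.904 ± 0.329 CPM. The lower level of Slc1a5 in astrocytes so lay in the Cast allele, and the 129 ranges overlapped.

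Glul had fewer Cast than 129 reads in all 12 clones. In astrocytes percent Cast was 28.3, 41.9, 43.9, 34.7 and 35.7% (clones as before), with a log2 ratio of −0.79 ± 0.160 (adjusted p = 0.0224), a call lost without mC3 or mE6. Without clone 129 the log2 ratio was −0.65 and still passed. In poly(A) NPC it was 46.7, 39.8 and 40.8%, and in the Ch clones 23.9, 24.6, 24.6 and 24.8%. Clone 129 and the Ch clones, in which the whole of chromosome 1 was low in Cast, had the lowest ratios. Set against the median of chromosome 1 in the same clone, Glul was lower by 5.94 to 14.8 points in astrocytes, by 4.29 to 7.94 in poly(A) NPC and by 7.49 to 8.82 in the Ch clones. The log2 ratio over all NPC clones was −1.12 ± 0.229 (adjusted p = 0.00794), over the Ch clones alone −1.62 ± 0.0223 (adjusted p = 2.24e-05) and over poly(A) NPC alone −0.44 ± 0.106, which did not pass the test (adjusted p = 0.0899).

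Slc1a2 had less Cast than 129 in each of the 7 NPC clones, with 33.5, 47.0 and 40.2% in F5, mG2 and mG6 and 37.1, 31.3, 42.2 and 33.9% in the Ch clones (log2 ratio −0.72 ± 0.121, adjusted p = 0.00349). In astrocytes it was 70.2, 48.7, 52.8, 43.0 and 39.7%. Clone 129, the only one above 65%, had 14990 allele-specific reads for this gene and the lowest astrocyte level of it. Without this clone the log2 ratio in astrocytes went from 0.05 to −0.23, and neither value passed the test. The ratio also differed among the Ch clones, for 3 of the 9 members (Slc1a2, Slc1a4 and Slc38a1), against 8.80% of 11535 genes. For Slc1a2 the 2 libraries of Ch7 had 42.4 and 42.0% and those of Ch5 31.3 and 31.2% (adjusted p = 0.000956).

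Slc1a3 leaned to Cast in all 12 clones, at 59.7, 59.3, 54.6, 51.7 and 52.7% in astrocytes, 54.5, 55.0 and 54.6% in poly(A) NPC and 53.2, 54.5, 52.5 and 53.2% in the Ch clones. In NPC the log2 ratio was small and even (0.23 ± 0.0261, adjusted p = 0.000701), and in astrocytes it was 0.33 ± 0.0937 (adjusted p = 0.0572). Slc1a4 leaned to 129 in all 7 NPC clones, at 44.7, 41.9 and 41.3% in poly(A) NPC and 39.2, 43.7, 46.3 and 45.6% in the Ch clones (log2 ratio −0.39 ± 0.0559, adjusted p = 0.00171). Its astrocyte values of 54.1, 48.0, 47.8, 51.0 and 53.5% lay above those of all 7 NPC clones. The difference from poly(A) NPC was 0.48 ± 0.108 on the log2 scale (adjusted p = 0.122), and 0.44 with all 7 NPC clones, which passed the test (adjusted p = 0.0214). Among the Ch clones Slc1a4 was lowest in Ch3 (41.9 and 37.0%, adjusted p = 0.0103), a call lost without the second library of Ch3 or the first of Ch7. The call for Slc1a2 was also lost without the first library of Ch7 (adjusted p = 0.0563).

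Slc38a3 had 42.9, 41.0, 20.7, 38.7 and 39.4% Cast in astrocytes, with clone G4 apart from the other 4, on 2625 allele-specific reads. In poly(A) NPC it had 70.7, 45.2 and 45.5%, with F5 apart, and in the Ch clones, on only 57 to 178 reads each, 41.3, 49.4, 34.8 and 54.4%. Chromosome 9, on which it lies, was even in both G4 and F5. The log2 ratio in astrocytes was −0.82 ± 0.252 (adjusted p = 0.0670) and −0.56 without G4, which passed the test (adjusted p = 0.0110), and the difference from poly(A) NPC of −1.06 ± 0.496 did not pass the test (adjusted p = 0.458). Slc38a2 stayed at 47.3 to 58.2% and Glud1 at 42.9 to 51.9% in the 12 clones, and neither passed edgeR's test of Cast against 129 in astrocytes or over the 7 NPC clones (unadjusted p from 0.0719 to 0.829). In the Ch clones alone Glud1 passed, with a log2 ratio of −0.21 (edgeR, adjusted p = 0.0444).

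Slc38a1 was the member in which clones went opposite ways. Cast reads were 99.9% in clone 129 (2264 of 2267 reads), 78.3% in G4, 46.3% in C2, 38.8% in mC3 and 10.7% in mE6. In poly(A) NPC they were 86.0% in F5, 94.0% in mG6 and 11.6% in mG2. Ch3 had 26.2% (30.03 and 23.1% in its libraries), while Ch5, Ch7 and Ch8 had 47.8, 45.6 and 47.5%. Thus 3 clones were monoallelic for Cast, 2 for 129, 2 were biased and 5 biallelic. The difference among the Ch clones passed the test (adjusted p = 7.83e-42) with each library left out, and no common direction was detectable in astrocytes (log2 ratio 0.44 ± 1.83) or NPC (0.10 ± 0.888).

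The levels of both alleles were then set side by side. In clone C2, with the highest level, both were high, at 202 CPM of Cast and 235 CPM of 129 reads. In G4, with the lowest level, both were low, at 1.59 and 0.441 CPM. Clone 129 had 24.3 CPM of Cast reads and 0.0322 CPM of 129 reads, and mE6 had 2.67 and 22.3 CPM. Clone mC3 had 25.8 and 40.7 CPM. The Cast allele of clone 129 was close to that of mC3, while the 129 allele of mE6 lay under that of mC3. Both were far under the same alleles of C2. In poly(A) NPC, F5 had 73.9 CPM of Cast against 12.04 of 129 reads, mG2 5.60 against 42.8 and mG6 12.5 against 0.8003. Ch5, Ch7 and Ch8 had 27.6 to 34.1 CPM of Cast and 30.3 to 38.8 CPM of 129 reads, and Ch3, at 9.83 and 26.8 CPM, differed from them mainly in Cast. Over the 8 poly(A) clones the Cast allele ranged from 1.59 to 202 CPM and the 129 allele from 0.0322 to 235 CPM.

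**Figure D4:**
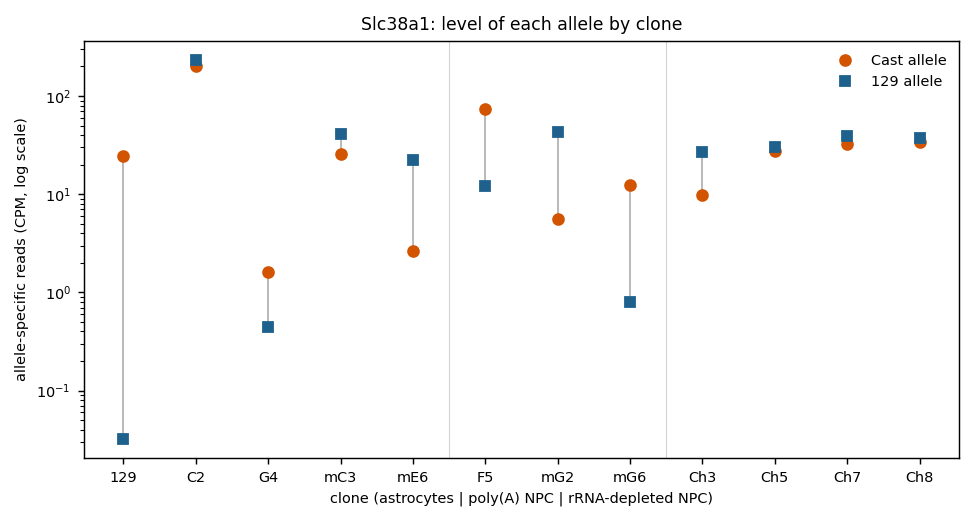
Level of the Cast (circles) and 129 (squares) allele of Slc38a1 in each clone, in CPM of allele-specific reads on a log scale, with lines joining the alleles of a clone. Both alleles are high in C2 and low in G4, and those of clone 129 lie farthest apart, at 24.3 and 0.0322 CPM.

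The allelic state of Slc38a1 was set against its level. The 5 monoallelic clones had 38.2 (129), 40.9 (mE6), 137 (F5), 86.3 (mG2) and 22.1 CPM (mG6), the biased clones 3.44 (G4) and 72.8 CPM (Ch3), and the biallelic clones 758 (C2), 105 (mC3), 111 (Ch5), 138 (Ch7) and 138 CPM (Ch8). The levels of the Ch clones are on the scale of their own preparation. The distance of percent Cast from 50 and the log2 CPM, each centred within the 3 sets of clones, had a Pearson r of −0.583 (exact permutation within sets, two-sided, p = 0.192, n = 12 clones) and a Spearman rho of −0.720 (exact permutation p = 0.0123). Without centring, which sets levels from both preparations on 1 scale although they were scaled separately, r was −0.546 (100000 permutations, permutation p = 0.0577) and rho −0.720 (permutation p = 0.0108). Without Ch5 and 129, the clones farthest from the median imbalance, r was −0.685 (permutation p = 0.118) and rho −0.745 (permutation p = 0.0336). Without G4, in which both alleles were low, r was −0.810 (permutation p = 0.00174), and without C2 it was −0.280 (permutation p = 0.621), so the linear relation rested on single clones. It was the only relation of this kind computed, and both measures come from the same reads. Slc38a1 was chosen for it with earlier results of these data known, so the permutation p-values are a description.

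The genes around Slc38a1 were mostly even. Of the 4 nearest measured genes on each side, 6 were biallelic wherever they had 20 allele-specific reads, among them Slc38a2, whose body begins 43954 bp away and which stayed at 47.3 to 58.2% in the clones in which Slc38a1 spanned 10.7 to 99.9%. Within this narrow range Slc38a2 was highest in clones 129 (58.2%), G4 (57.8%), F5 (53.0%) and mG6 (51.7%). These are the clones in which Slc38a1 had more Cast than 129 reads. Slc38a2 was lowest in Ch3 (47.3%) and mE6 (48.2%), in which Slc38a1 had mostly 129 reads. Whether the ratios of both genes are linked was not tested. Of the neighbours' 94 values, 79 were biallelic, against 5 of the 12 of Slc38a1. The exceptions were Nell2, a secreted neural protein gene 1042622 bp away (33.8 to 80.4%, outside the range in 7 of 12 clones), and Amigo2, a cell adhesion gene 600636 bp away (60.9 to 100%, outside it in 8 of 10 clones). Amigo2 rested on 21 to 107 reads per clone and had more Cast than 129 reads in all 10, including clones mE6 and mG2, in which Slc38a1 had mostly 129 reads. Nell2 had 33.8% Cast in G4 and 65.1% in clone 129, whereas Slc38a1 had 78.3 and 99.9%.

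**Figure D5:**
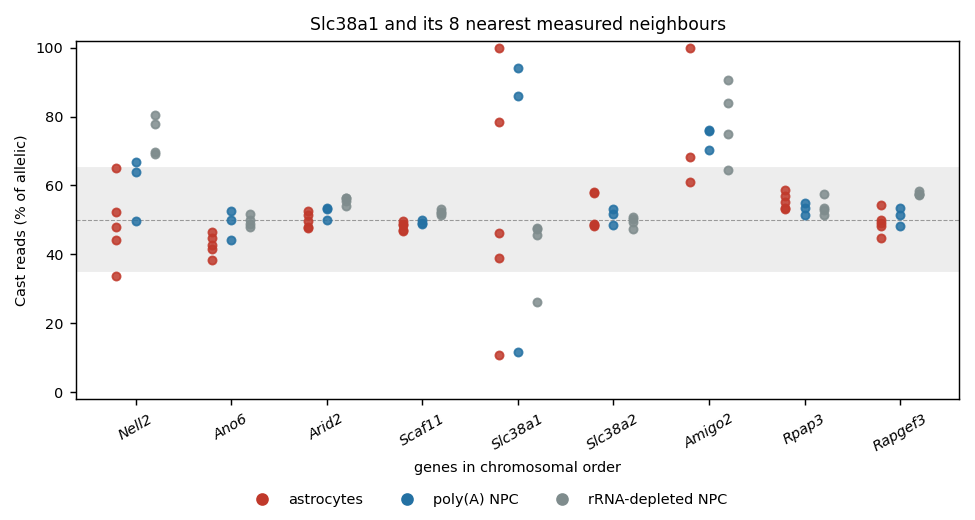
Percent Cast of Slc38a1 and the 4 nearest measured genes on each side, in chromosomal order (not to scale), with 1 point per clone, in astrocytes (red), poly(A) NPC (blue) and rRNA-depleted NPC (grey), and the biallelic range shaded. Slc38a1 spreads from 10.7 to 99.9%, Slc38a2 beside it stays within 47.3 to 58.2%, and Nell2 and Amigo2 leave the shaded range.

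Outside this region, the autosomal genes whose percent Cast was most like that of Slc38a1 over the 12 clones, out of 9512 genes, were Atp5sl (Pearson r 0.860), Igf2r (0.805) and Agpat4 (0.80). Genes within 5 Mb of Slc38a1, Slc38a2 among them, were left out of this search. Atp5sl ranged over only 46.0 to 54.3% and Agpat4 over 40 to 53.0%, while Igf2r ranged from 4.81 to 83.1%. By level, centred within sets, the genes most like each member were Nek1 for Slc1a2 (r 0.896), Dtx4 for Slc1a3 (0.984), Tmem98 for Slc1a4 (0.942), Ikbkap for Slc1a5 (0.966), Rnf130 for Glul (0.958), Tmem201 for Slc38a1 (0.929), Rapgef3 for Slc38a2 (0.924), Chst2 for Slc38a3 (0.984) and Rnd2 for Glud1 (0.977). These are the highest of about as many values as there were genes, over 12 clones that share scaling, and are a description.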

How the data were processed

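The members and the gene lists were chosen with earlier results of these data known. The authors masked GRCm38 (mm10) at polymorphic bases, aligned reads with TopHat2 (2.1.0) and Bowtie2, assigned them to an allele with SNPsplit and counted read pairs per gene with strand in featureCounts (1.5.1), per the study's methods and the processing notes. The deposited counts of all, Cast and 129 reads for 50600 genes were used. The deposited fraction of Cast reads was not used, since the authors made it from the same counts.

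Libraries were grouped by their labels. For ratios the reads of both libraries of a Ch clone were added up, and for levels their CPM was averaged. Gene identifiers were given a symbol in 32722 cases and a RefSeq GRCm38.p6 position in 26019. Exon lengths came from an annotation of an older build (GENCODE vM1, NCBIM37) and were used as lengths only. Levels were tested with edgeR 4.0.16 (quasi-likelihood, TMM, expression filter, Benjamini-Hochberg adjusted p under 0.05 over all genes tested) in R 4.3.3. Allelic counts were tested in the same way with a term for each library and one for the Cast reads, or its interaction with cell type or clone. Ratios needed 20 allele-specific reads, and 95% Wilson intervals reflect counting error alone. With 1 library per clone, p-values measure the spread between clones.

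All 9 members were named, with up to 4 called genes of largest change per pathway list, the neighbours of Slc38a1 that left 35 to 65%, and the genes most alike (3 for the ratio, 1 per member for level, with at least 10 CPM in each set). Alternatives were DESeq2 1.42.0, other scaling and filters, sex as a covariate, a replicate block, leaving out each library and, added after the data were seen, ratios set against the clone's median. Tested on simulated data with 200 genes changed by a log2 value of 2, the test of astrocytes against poly(A) NPC recovered 192 with 11 false calls among 17915 genes, and the test of the ratio between them 182 with 10 among 13286. The tests among Ch clones recovered fewer, 147 for level and 167 for ratio. Those of Cast against 129 recovered 200 in astrocytes and 198 in NPC. The simulated spread was the same for every gene, so recovery for members that vary widely between clones, such as Slc38a1, was not tested.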

Additional observations from a re-analysis of the deposited data

Results flagged for a closer look

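Slc38a1 in the astrocytes of clone C2, at 758 CPM, was far from the other 4 astrocyte clones (3.44 to 105 CPM), and percent Cast of Slc38a3 in the astrocytes of clone G4, at 20.7%, was far from the other 4 (38.7 to 42.9%). Both passed Dixon's test at its 95% limit, among 18 groups tested, where chance alone gives about 1 in 20. The level was taken as CPM, not as log2 CPM. On a log scale C2 would stand less far apart, and that was not tested. The log2 ratio of Cast to 129 reads of Slc1a5 differed between astrocytes and poly(A) NPC by −2.14 in the test of the difference itself.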

How the results depend on the processing

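With the expression filter left out, 3 rather than 5 members differed in level between astrocytes and poly(A) NPC, and 0 rather than 1 in allelic ratio (edgeR, Slc1a5 having an adjusted p of 0.0623). With ratios set against the median of each clone, 2 members rather than 1 passed the allelic test in astrocytes, Slc1a3 joining Glul. In NPC 3 members passed in poly(A) clones alone, against 5. With all 7 NPC clones in the test of the ratio 2 passed, and the differences of Glul (0.34) and Slc38a1 (0.34) turned positive. In NPC the log2 ratio of Slc38a3 became 0.031 with the first library of each Ch clone alone and 0.23 in poly(A) NPC, where that of Glud1 became 0.037, and in the Ch clones those of Slc38a1 and Slc38a2 became −0.50 and −0.031. None of these passed the test. DESeq2 called 10 rather than 6 of the metabolic genes and 8 rather than 5 of the partners of uptake. It also called more of all genes, 6280 of 18054 against 4644 of 18192 in edgeR. Over all genes the number called for the ratio between cell types moved from 51 to 31 without the filter, 599 with all 7 NPC clones and 99 where every library had to hold 50 allelic reads, and it was 2 without F5. It was 1509 rather than 4464 in poly(A) NPC alone, 4361 rather than 2834 for level among Ch clones without the filter, and, with 1 library left out, as low as 2269 rather than 4644 for level between cell types (without mG2), 1761 rather than 3202 for the alleles in astrocytes (without mC3) and 1509 for level among Ch clones (without the second library of Ch3).

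With each clone or library left out in turn, the number of members called was 1 to 4 for level in astrocytes against poly(A) NPC (1 without F5, mG2 or mG6, 2 without mC3 or mE6, 3 without G4, 4 without 129 or C2), 0 to 2 for Cast against 129 in astrocytes (0 without mC3 or mE6, 2 without G4), 5 in NPC, 0 to 1 for the ratio between cell types, 3 to 6 for level and 1 to 3 for ratio among Ch clones (1 without the first library of Ch7). The relation of Slc38a1 had r from −0.810 to −0.280. Log2 values that changed sign were, between cell types, those of level for Slc38a1 (−0.85 to 1.80) and Slc1a3 (−0.0074 to 0.58), and of the ratio for Slc1a3 (−0.0062 to 0.11), Slc38a2 (−0.017 to 0.13) and Slc38a1 (−2.84 to 0.60). The Cast against 129 values that changed sign were Slc1a2 (−0.23 to 0.22) and Slc38a1 (−0.51 to 1.41) in astrocytes, and Slc38a1 (−0.43 to 0.61), Slc38a2 (−0.018 to 0.037) and Slc38a3 (−0.30 to 0.067) in NPC. None of these passed the test with or without the clone, and the cause was not tested. Of all values of single members under an alternative, 545 stayed on their side of the threshold, 42 fell short of it, 11 passed it and 23 changed sign.

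The labels number the libraries of each Ch clone 1 and 2. Deviations of same-numbered libraries had a correlation of −0.276 to 0.417 between clones. It was highest for Ch5 with Ch8 (0.417) and Ch3 with Ch8 (0.231) and lowest for Ch3 with Ch7 (−0.276). The sign thus differed between pairs, and whether same-numbered libraries share a batch cannot be told from these values. With that number as a replicate block, 5 rather than 4 members (Glul joining) and 3391 rather than 2834 genes differed in level, and 3 members in both fits and 1003 rather than 1015 genes in ratio.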
